A study of Mus musculus with 12 samples.

Results

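Ly6 proteins are small cell surface proteins that share a disulfide-bonded fold, are held on the outer face of the plasma membrane by a glycosylphosphatidylinositol (GPI) anchor and serve as markers of lymphocyte subsets. The genes described here are *Ly6a*, *Ly6c1*, *Ly6c2* and *Ly6e*, selected as the rows of the count table that carry these symbols, which gave 4 genes of 49585 in the table. *Ly6c2* was selected on its measured counts, chosen by the difference between mouse strains in its gap between T cell lineages, so its values are given as a description with no test. All 4 genes passed the filter on low counts, as did 13118 genes in all.

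RNA-seq was performed on sorted lymph node (LN) T cells of 4 groups, each with 3 samples of pooled cells from male mice of 6 to 10 weeks. The paper itself reports use of mice of both sexes unless stated otherwise, and its RNA-seq methods name no sex. B6 CD4+ and B6 CD8+ T cells came from C57BL/6 mice. CD8.1 and CD8.2 T cells came from CD8Dual mice, in which both *Cd4* loci were altered to encode CD8α.1 and CD8β in place of CD4 and both *Cd8* loci were left intact to encode CD8α.2 and CD8β, so that both subsets bear CD8 and read MHC class I. All 4 groups were gated on CD62L and TCRβ, the methods add that cells were CD44 negative while the labels name no CD44 gate, and the comparisons ask how far CD8.1 and CD8.2 T cells follow the helper and cytotoxic programmes of B6 T cells.

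*Ly6a* encodes Sca-1, known as a marker of blood stem cells and also carried by T cells, where interferon and activation raise it. *Ly6c1* and *Ly6c2* encode near-identical Ly6C proteins, and Ly6C on CD8+ T cells is widely used as a sign of memory differentiation. *Ly6e* encodes thymic shared antigen 1, a marker of immature thymocytes that is also induced by interferon. Reading these genes in bulk RNA carries a limit: fewer cells of a type and less RNA per cell cannot be told apart.

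The libraries held 18667474 to 37110502 counts, the deepest being CD8.2 replicate 3, which stood furthest from its fellow replicates by the chi-square of counts per gene. Leaving it out changed no call of a member. *Cd4* reached 969 ± 53.0 CPM (counts scaled to library size, mean ± SD, n = 3) in B6 CD4+ T cells and 49.7 ± 2.27 CPM in CD8.1 T cells, and was under 2 CPM in both cytotoxic groups. *Cd8a* reached 1423 ± 48.8 CPM in B6 CD8+ T cells, 1460 ± 30.4 CPM in CD8.2 T cells, 192 ± 11.5 CPM in CD8.1 T cells and 1.17 ± 0.428 CPM in B6 CD4+ T cells. The 7 T cell markers were all detected in every group. The 5 markers of regulatory T cells summed to 133 to 185 CPM in B6 CD4+, 350 to 385 CPM in CD8.1, 55.1 to 59.8 CPM in B6 CD8+ and 54.0 to 56.4 CPM in CD8.2 samples. *Foxp3*, their defining transcription factor, was at 38.3 CPM for B6 CD4+ and 140 CPM for CD8.1, against 0.333 CPM for B6 CD8+ and 1.24 CPM for CD8.2 samples, and most of the sum in both cytotoxic groups came from *Tnfrsf18*, at 50.1 and 46.1 CPM.

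The 4 genes lie within 156920 bases of mouse chromosome 15 (GRCm38, the build used by the study and also called mm10, with GENCODE M21 genes). *Ly6e* (ENSMUSG00000022587) lies on the plus strand at chr15:74955051-74959905. *Ly6a* (ENSMUSG00000075602), *Ly6c1* (ENSMUSG00000079018) and *Ly6c2* (ENSMUSG00000022584) lie on the minus strand at chr15:74994877-74998031, chr15:75044018-75048830 and chr15:75108158-75111970. Gaps of 34971, 45986 and 59327 bases separate *Ly6e* from *Ly6a*, *Ly6a* from *Ly6c1* and *Ly6c1* from *Ly6c2*. No other annotated gene overlapped any of them. In the reference transcript of each gene (the lowest-numbered of its GENCODE models), 3 exons hold coding sequence, for 134 amino acids in *Ly6a*, 131 in *Ly6c1*, 131 in *Ly6c2* and 136 in *Ly6e*.

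*Ly6c1* and *Ly6c2* are the pair on which the results turn, and their coding sequences were 97.7% identical, with 9 differing bases of 393. The first 180 coding bases are shown because they hold 6 of those 9 differences, here from the GENCODE M21 transcripts, with differing bases in capitals.
Ly6c1: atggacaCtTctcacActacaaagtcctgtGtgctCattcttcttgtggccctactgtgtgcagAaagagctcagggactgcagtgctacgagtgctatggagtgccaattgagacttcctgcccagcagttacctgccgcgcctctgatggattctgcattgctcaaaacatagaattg
Ly6c2: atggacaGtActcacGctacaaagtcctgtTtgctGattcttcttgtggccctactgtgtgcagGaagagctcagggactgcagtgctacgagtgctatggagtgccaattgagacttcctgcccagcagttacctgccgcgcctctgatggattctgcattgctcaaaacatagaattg
The other 3 differences fell at coding bases 254, 327 and 376, counted from the A of the start codon. *Ly6a* was 81.8% identical to *Ly6c1* and 81.6% to *Ly6c2*, and *Ly6e* was 50.5% to 53.4% identical to the other 3 genes. Likeness of this degree bears on counting: 15.3% of all stretches of 100 bases in the *Ly6c1* transcript occurred without a mismatch in *Ly6c2*, and 15.8% the other way. For *Ly6a* and *Ly6e*, 0 of 720 and 0 of 2182 such stretches occurred in a transcript of another gene.

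Upstream of their starts the pair differed more. The 250 bases before each start are shown, from RefSeq on GRCm38.p6, since *Ly6c1* and *Ly6c2* had opposite lineage patterns. They lie on the minus strand at chr15:75048838-75049087 for *Ly6c1* and chr15:75111972-75112221 for *Ly6c2*.
Ly6c1: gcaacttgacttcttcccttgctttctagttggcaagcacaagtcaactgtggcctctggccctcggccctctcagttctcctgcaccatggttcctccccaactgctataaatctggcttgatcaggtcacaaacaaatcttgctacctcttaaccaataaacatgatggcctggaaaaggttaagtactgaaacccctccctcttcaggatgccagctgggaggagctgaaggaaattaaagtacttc
Ly6c2: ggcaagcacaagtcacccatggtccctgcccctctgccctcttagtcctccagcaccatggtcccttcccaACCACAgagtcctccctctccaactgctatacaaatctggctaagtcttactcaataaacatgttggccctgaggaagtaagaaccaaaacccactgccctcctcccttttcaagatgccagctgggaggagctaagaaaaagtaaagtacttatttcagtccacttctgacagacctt
Where the windows overlapped once aligned, 164 of 228 positions (71.9%) were identical. Capitals mark the single match, on the opposite strand, to the RUNX motif TGTGGT, which begins 179 bases before the *Ly6c2* start. The same motif had no match in the *Ly6c1* window and was present on either strand in 14.0% of 32851 RefSeq windows of this length. Neither window held the interferon-gamma motif TTCNNNGAA (7.02% of all windows) or the T-box motif GGTGTGA (3.33%) on either strand. These letters are a description of 2 windows and not evidence of binding.

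*Ly6c1* marked the helper side of both strains. B6 CD4+ samples held 104, 126 and 110 CPM and B6 CD8+ samples 1.47, 1.38 and 1.88 CPM. CD8.1 samples held 83.4, 88.6 and 71.7 CPM and CD8.2 samples 0.681, 2.06 and 0.933 CPM. The helper and cytotoxic groups did not overlap in either strain, and the cytotoxic values rest on only 16 to 39 reads a library. *Ly6c1* was 72.5-fold higher in the CD4+ than in the CD8+ T cells of B6 mice (log2 fold change 6.18, SE 0.209, adjusted P = 5.56e-12, edgeR) and 71.0-fold higher in the CD8.1 than in the CD8.2 subset (6.15, SE 0.217, adjusted P = 2.15e-11). The size of the gap was therefore not shown to differ between strains, with an interaction of -0.03 on the log2 scale (SE 0.358, adjusted P = 0.982). Of all 13118 genes tested, 23.1% were called between the B6 lineages and 28.7% between the CD8Dual subsets.

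**Figure D1:**
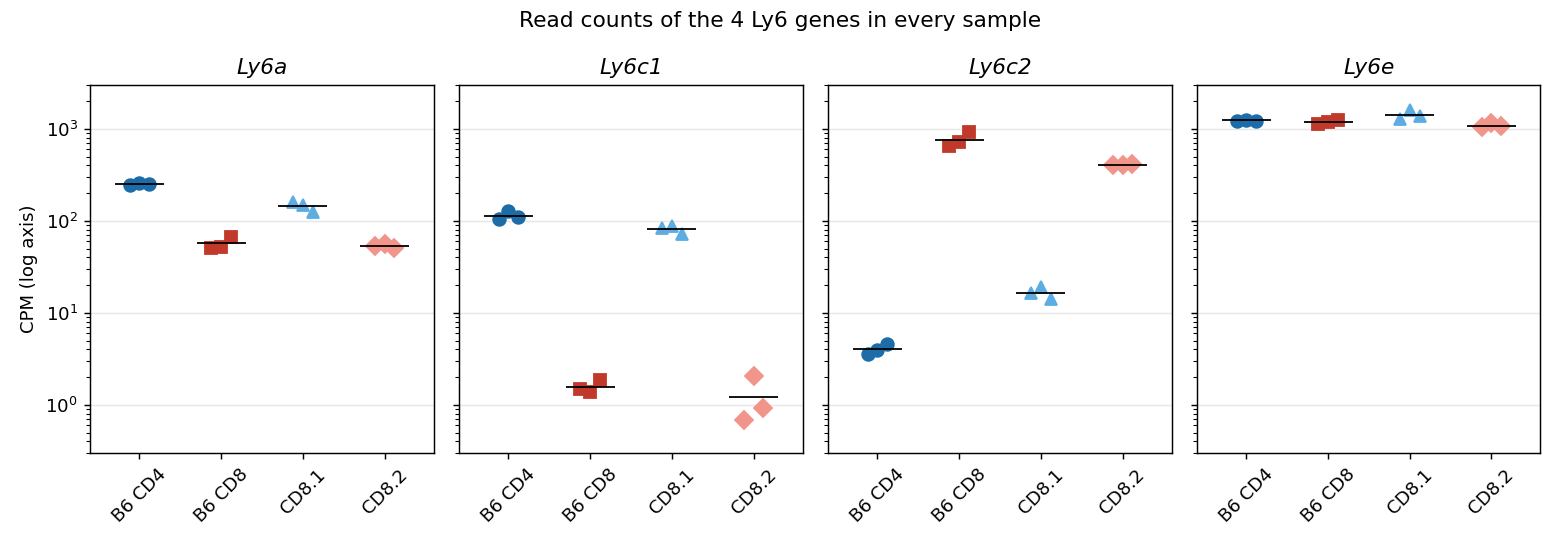
CPM of the 4 Ly6 genes in each of the 12 samples, on a logarithmic axis, with a point per sample and a line at the mean of the 3 samples of each group. *Ly6a* and *Ly6c1* are higher in B6 CD4+ and CD8.1 samples, *Ly6c2* is higher in B6 CD8+ and CD8.2 samples with CD8.1 samples at 14.2 to 19.3 CPM, and *Ly6e* lies between 1037 and 1583 CPM in all samples.

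*Ly6c2* marked the cytotoxic side. The values were 650, 714 and 930 CPM in B6 CD8+ and 3.55, 3.92 and 4.64 CPM in B6 CD4+ samples. CD8.2 samples held 408, 401 and 411 CPM and CD8.1 samples 16.3, 19.3 and 14.2 CPM. None of the 4 groups overlapped with another. The mean CPM was 190-fold lower in B6 CD4+ than in B6 CD8+ T cells and 24.5-fold lower in the CD8.1 than in the CD8.2 subset. Both strain differences narrowed this gap, since CD8.1 T cells held 4.12-fold the mean CPM of B6 CD4+ T cells and CD8.2 T cells 0.532-fold that of B6 CD8+ T cells. On the log2 scale the lineage change was -7.56 in B6 and -4.61 in CD8Dual mice, 2.95 apart (SE 0.200). These are the values for which the gene was chosen.

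Which gene of the pair made up its counts followed lineage. *Ly6c1* made up 96.5% ± 0.54 of the summed *Ly6c1* and *Ly6c2* counts in B6 CD4+ T cells (SD, n = 3) and 0.207% ± 0.017 in B6 CD8+ T cells. In CD8Dual mice the share was 83.1% ± 0.85 for CD8.1 and 0.301% ± 0.18 for CD8.2 samples. In the B6 CD8+ samples, then, at most 0.226% of the pair's counts stood under *Ly6c1*, which bounds how many *Ly6c2* reads the counting placed there. How reads shared by both genes were assigned is not given in the sources used here, so the bound holds only for the counting as it was done. For every 100 *Ly6c1* counts there were 3.10 to 4.22 *Ly6c2* counts in B6 CD4+ and 19.6 to 21.8 in CD8.1 samples. *Ly6c2* was chosen on its counts in these groups, so this difference is a description only. Summed, the pair reached 117 ± 11.8 CPM for B6 CD4+, 766 ± 147 CPM for B6 CD8+, 97.8 ± 11.1 CPM for CD8.1 and 408 ± 4.13 CPM for CD8.2 samples, so that a measure that joins both genes would show a lineage gap of -2.71 on the log2 scale in B6 and -2.06 in CD8Dual mice.

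**Figure D2:**
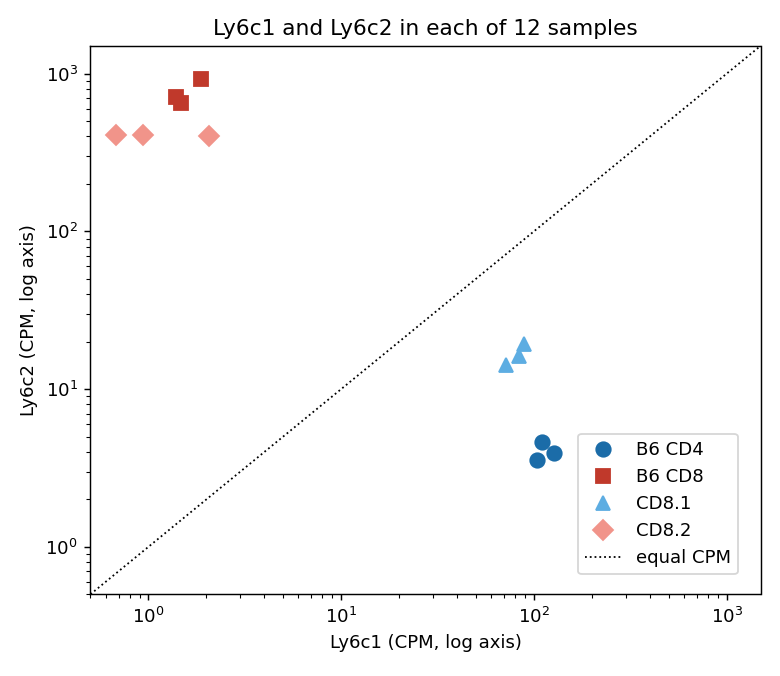
*Ly6c1* on the horizontal axis against *Ly6c2* on the vertical axis, both in CPM on logarithmic axes, with a point for each of 12 samples and a dotted line where both are equal. The 6 helper-side samples lie below the line and the 6 cytotoxic-side samples above it, and the CD8.1 samples lie above the B6 CD4+ samples in *Ly6c2*.

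*Ly6a* was also higher on the helper side, by less. B6 CD4+ samples held 248, 257 and 250 CPM and B6 CD8+ samples 51.3, 52.4 and 66.7 CPM. CD8.1 samples held 159, 150 and 126 CPM and CD8.2 samples 52.7, 55.4 and 50.5 CPM. The cytotoxic groups overlapped, while CD8.1 samples fell between them and the B6 CD4+ samples without overlap. *Ly6a* was 4.44-fold higher in the CD4+ than in the CD8+ T cells of B6 mice (log2 fold change 2.15, SE 0.106, adjusted P = 4.84e-10, edgeR) and 2.75-fold higher in the CD8.1 than in the CD8.2 subset (1.46, SE 0.105, adjusted P = 4.98e-08). The gap was smaller in CD8Dual mice by 0.69 on the log2 scale, an interaction of -0.69 (SE 0.145, adjusted P = 0.0196), a call made for 1.87% of all genes. It was lost when any of 5 single libraries was left out (B6 CD4 replicate 2, B6 CD8 replicate 1 or 2, CD8.2 replicate 1 or 2), with an adjusted P of up to 0.0725 and log2 values of -0.83 to -0.61 over all 12 leave-outs.

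Between strains, 2 of the 3 members tested fell in CD8.1 relative to B6 CD4+ T cells, a comparison in which 12.8% of all genes were called. *Ly6a* was 1.73-fold lower (log2 fold change -0.79, SE 0.102, adjusted P = 0.000233, edgeR). *Ly6c1* was 1.40-fold lower (-0.48, SE 0.146, adjusted P = 0.0432), and this call was lost without B6 CD4 replicate 1 or 2, B6 CD8 replicate 1 or 2, or CD8.1 replicate 2 or 3, with an adjusted P of up to 0.148. In CD8.2 relative to B6 CD8+ T cells, where 7.94% of all genes were called, none of the 3 tested members passed the adjusted test in edgeR, and none had an unadjusted P under 0.05. *Ly6a* differed by -0.10 (SE 0.104, adjusted P = 0.607) and *Ly6c1* by -0.45 (SE 0.300, adjusted P = 0.396), the latter from few reads and between -0.91 and -0.20 when single libraries were left out, never called. The comparisons share groups, so their values are not independent of each other.

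*Ly6e* was the most even member. B6 CD4+ samples held 1213, 1259 and 1230 CPM and B6 CD8+ samples 1128, 1199 and 1255 CPM. CD8.1 samples held 1269, 1583 and 1370 CPM and CD8.2 samples 1037, 1145 and 1067 CPM. The B6 groups overlapped, with a log2 fold change of 0.05 (SE 0.0811, adjusted P = 0.746, edgeR), and the CD8Dual groups did not. *Ly6e* was higher in CD8.1 than in their CD8.2 counterparts by 0.38 on the log2 scale (CPM means 1407 ± 160 and 1083 ± 55.7, SE 0.0812, adjusted P = 0.00264). That this gap was greater than the B6 gap was not shown, since the interaction of 0.33 had an adjusted P of 0.219 (SE 0.115). Neither strain difference passed, at 0.19 for CD8.1 against B6 CD4+ (SE 0.0811, adjusted P = 0.137) and -0.14 for CD8.2 against B6 CD8+ T cells (SE 0.0811, adjusted P = 0.319). Without CD8.1 replicate 1, the lowest of its group, the first and the interaction passed, with adjusted P of 0.0241 and 0.0208.

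**Figure D3:**
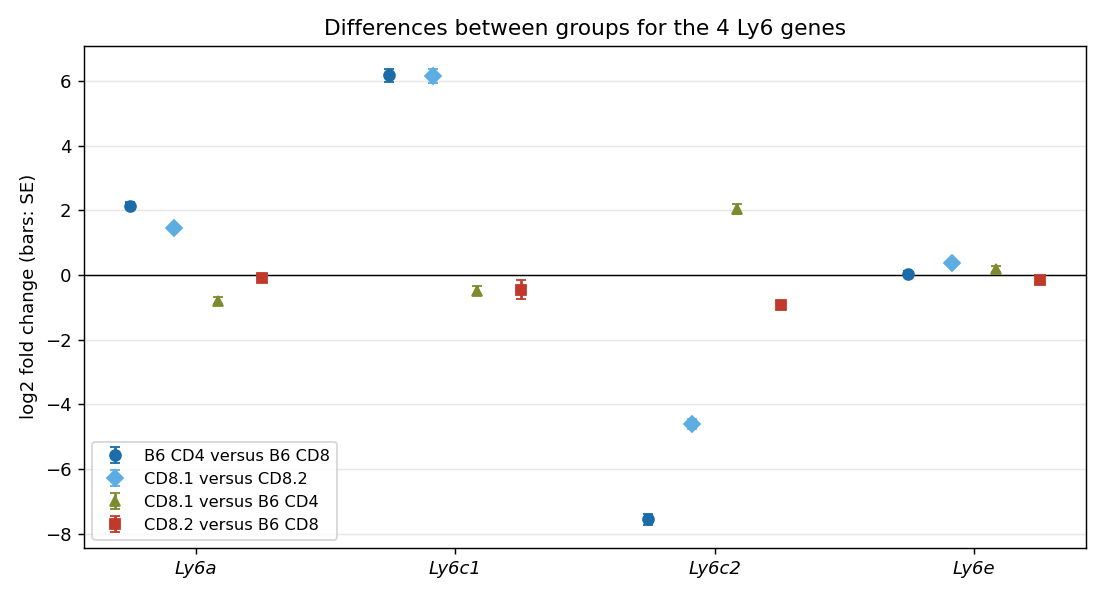
Fitted log2 fold change of each Ly6 gene on the vertical axis for 4 comparisons, with bars for the SE and positive values for a higher level in the first-named group. *Ly6a* and *Ly6c1* are positive and *Ly6c2* is negative in both lineage comparisons, while *Ly6e* stays between -0.14 and 0.38 throughout.

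Levels of different genes were compared per kilobase of exonic sequence, taking all annotated exons of a gene together. B6 CD4+ T cells held 326 ± 6.19 CPM per kilobase of *Ly6e*, 209 ± 4.06 of *Ly6a*, 67.6 ± 7.02 of *Ly6c1* and 1.47 ± 0.202 of *Ly6c2*. In B6 CD8+ T cells the order was *Ly6e* at 315 ± 16.7, *Ly6c2* at 279 ± 53.5, *Ly6a* at 47.1 ± 7.15 and *Ly6c1* at 0.941 ± 0.157 CPM per kilobase, and the spreads of the first pair overlapped. CD8.1 T cells followed the B6 CD4+ order, at 372 ± 42.4, 120 ± 14.2, 48.4 ± 5.16 and 6.07 ± 0.941 CPM per kilobase. CD8.2 T cells followed the B6 CD8+ order, with *Ly6e* at 286 ± 14.7, *Ly6c2* at 148 ± 1.73, *Ly6a* at 43.9 ± 2.02 and *Ly6c1* at 0.730 ± 0.436 CPM per kilobase. The place of *Ly6c2* rests on the length used: its exons add up to 2740 bases with a long transcript included and to 822 bases in the reference transcript alone. Per kilobase of reference transcript, *Ly6c2* led in B6 CD8+ T cells at 930 ± 178 against 523 ± 27.8 for *Ly6e*, and in CD8.2 T cells at 495 ± 5.78 against 475 ± 24.4, the latter within 1 SD.

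Of 7 other annotated genes between *Ly6e* and *Ly6c2*, 0 passed the filter on low counts. The most counted in both B6 groups was *Ly6i*, another Ly6 gene, at 0.338 CPM for B6 CD4+ and 0.227 CPM for B6 CD8+, against 0.0917 CPM for CD8.1 and 0.0761 CPM for CD8.2 samples. In CD8.1 samples *Gm8000* was higher, at 0.142 CPM, and in CD8.2 samples it was at 0.0759 CPM. The counts of the interval were thus held by the 4 genes described, with *Ly6c1* and *Ly6c2* set 59327 bases apart and opposite in lineage pattern.

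**Figure D4:**
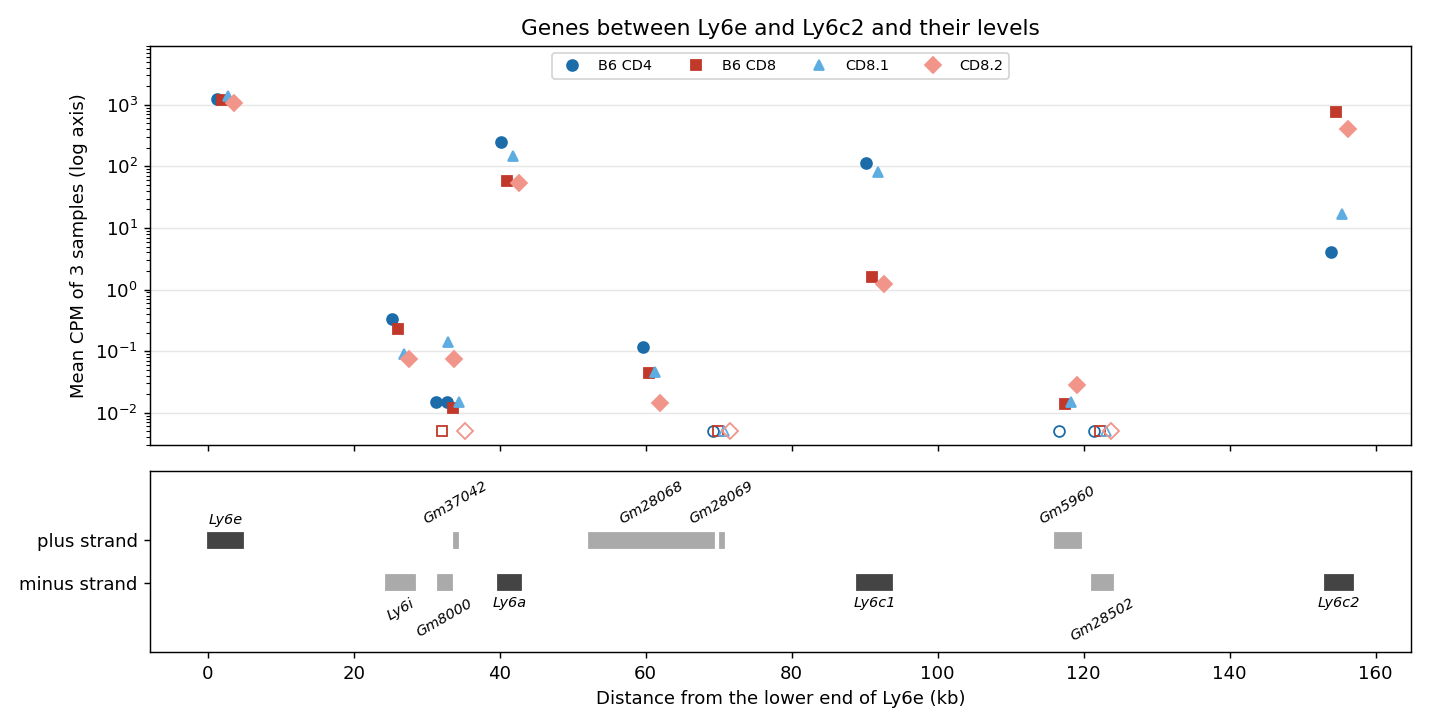
Upper panel, mean CPM of the 3 samples of each group on a logarithmic axis for every annotated gene between *Ly6e* and *Ly6c2*, with open symbols at the bottom for means of 0. Lower panel, the genes by strand and distance in kilobases from the lower end of *Ly6e*, with the 4 Ly6 genes described in dark grey and the 7 others, all under 1 CPM, in light grey.

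The wider Ly6/uPAR family was mostly silent, with 7 of 35 other members in the table passing the filter. Between B6 CD4+ and CD8+ T cells, 2 rose, 2 fell and 3 did not pass, with a median log2 fold change of 0.26 against 0.00 for all genes, of which 23.1% were called. *Ly6d*, known as a marker of early B lineage cells, had group means of 9.23 ± 1.11 CPM for B6 CD4+ and 4.90 ± 0.728 CPM for B6 CD8+, against 18.1 ± 3.68 CPM for CD8.1 and 8.73 ± 3.18 CPM for CD8.2 samples, and was higher on the helper side of both strains (log2 fold change 0.92, SE 0.237, adjusted P = 0.0102, edgeR, and 1.08, SE 0.224, adjusted P = 0.00204). The B cell gene *Cd79a* moved with it, at 23.9, 12.4, 45.9 and 24.4 CPM in the same order, and the 8 B cell markers summed to 541 to 579, 638 to 663, 654 to 793 and 595 to 687 CPM. Within B6 mice, 4 of the 8 were higher on the helper side, 2 were lower, namely *Cd79b* (log2 fold change -0.81, adjusted P = 0.00102, edgeR) and *Ighm* (-0.29, adjusted P = 0.0194), and 2 were not called. Between the CD8Dual subsets, *Cd79a* was higher in CD8.1 (log2 fold change 0.93, adjusted P = 0.00859, edgeR), while *Cd79b* was not called, at 35.6 CPM for CD8.1 against 42.1 CPM for CD8.2 samples. Their part in the *Ly6d* result was not tested. *Cd177*, best known from neutrophils, was at 2.15 ± 0.790 CPM in B6 CD4+ and 1.64 ± 0.567 CPM in CD8.1 T cells, at most 2 reads being counted in any cytotoxic sample, while the 7 neutrophil markers summed to no more than 1.45 CPM in any sample. *Plaur*, the urokinase receptor, and *Ly6g5b* were lower in B6 CD4+ than in B6 CD8+ T cells (log2 fold change -0.93, SE 0.231, and -1.83, SE 0.383) and lower in the CD8.2 subset than in B6 CD8+ T cells (-1.04, SE 0.232, and -1.34, SE 0.366). *Ly6k* was higher in the CD8.2 subset than in B6 CD8+ T cells by 0.90 (SE 0.249, adjusted P = 0.0402, edgeR). *Lynx1* stayed between 4.14 and 5.48 CPM and *Lypd6b* between 24.1 and 30.7 CPM in all group means, the latter lower in the CD8.1 than in the CD8.2 subset by -0.28. For CD8.1 against CD8.2 the family counts were 2 up and 1 down, for CD8.1 against B6 CD4+ 1 up and 0 down (2 in all with the replicate block), and for CD8.2 against B6 CD8+ 1 up and 2 down. In the same order, 28.7%, 12.8% and 7.94% of all genes were called in these comparisons. Without B6 CD8 replicate 1 or 3, or any CD8.2 replicate, 1 gene was called in the last of these.

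The enzymes that build the GPI anchor and attach it were listed with 27 genes that could be tested. Between B6 CD4+ and CD8+ T cells 2 rose and 2 fell, 4 of 27 against 23.1% of all genes, with a median log2 fold change of -0.02. In the CD8.1 subset relative to the CD8.2 subset 5 rose and 3 fell, 8 of 27 against 28.7% of all genes and so near the background, with a median of 0.14. *Piga*, which takes part in the first step of anchor synthesis, was lower on the helper side at -1.28 in B6 (SE 0.138) and -1.12 in CD8Dual mice (SE 0.140), with *Pgap3*, an anchor remodelling enzyme, at -0.88 (SE 0.103) and -0.38 (SE 0.103). Between strains, 1 rose and 0 fell in CD8.1 relative to B6 CD4+ T cells, and 1 rose and 2 fell in CD8.2 relative to B6 CD8+ T cells (5 called with the replicate block). There, 12.8% and 7.94% of all genes were called. Leaving out single libraries gave 0 to 6 calls in each strain comparison and 5 to 16 between the CD8Dual subsets, the highest without CD8.1 replicate 1.

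Other GPI-anchored lymphocyte proteins followed lineage on both sides. Of 15 tested, 4 were higher and 8 lower in the CD4+ than in the CD8+ T cells of B6 mice, and 5 higher and 7 lower in the CD8.1 than in the CD8.2 subset. Of all genes, 23.1% and 28.7% were called in these comparisons, 12.8% in CD8.1 against B6 CD4+ and 7.94% in CD8.2 against B6 CD8+. *Izumo1r*, the folate receptor FR4 of helper and regulatory T cells, was higher on the helper side by 2.34 (SE 0.112) in B6 and 2.92 (SE 0.114) in CD8Dual mice. *Prnp*, the prion protein gene, was higher by 1.98 (SE 0.309) and 2.74 (SE 0.290), and *Efna4*, an ephrin ligand, by 4.82 (SE 0.810) and 3.85 (SE 0.796). *Efna4* was near the floor, at 0.928 CPM in B6 CD4+ and 0.652 CPM in CD8.1 samples. It had 2 reads in total in B6 CD8+ and 3 in CD8.2 samples. *Cd160*, a receptor of NK and cytotoxic T cells, was lower by -3.89 (SE 0.224) and -2.00 (SE 0.210). In CD8.1 relative to B6 CD4+ T cells 6 rose and 0 fell, with a median of 0.44, among them *Cd160* at 0.86, *Nt5e* (CD73) at 0.75, *Izumo1r* at 0.77 and *Prnp* at 1.12. The regulatory T cell markers above were also highest in CD8.1 samples, and their part in these increases was not tested. Without B6 CD4 replicate 1, 3 were called. In CD8.2 relative to B6 CD8+ T cells, 1 rose and 1 fell (4 called with the replicate block, and 4 without B6 CD4 replicate 3).

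Genes tied to memory CD8+ T cells, among which Ly6C is counted, were mostly lower on the helper side, as *Ly6c2* was. Of 12 tested, 1 was higher and 10 lower in B6 CD4+ than in B6 CD8+ T cells, with a median log2 fold change of -4.14, and 3 were higher and 9 lower in the CD8.1 than in the CD8.2 subset, with a median of -2.63. In these comparisons 23.1% and 28.7% of all genes were called. *Nkg7*, a cytotoxic granule gene, was lower on the helper side by -7.38 (SE 0.204) in B6 and -5.57 (SE 0.182) in CD8Dual mice. The chemokine gene *Ccl5* was lower by -5.85 (SE 0.193) and -2.38 (SE 0.172), and *Cxcr3*, a chemokine receptor of effector and memory T cells, by -4.38 (SE 0.163) and -2.87 (SE 0.148). *Fasl*, the death ligand, went the other way in both strains, at 2.07 (SE 0.238) and 3.13 (SE 0.272). *Cd44* changed direction, lower in B6 CD4+ than in B6 CD8+ T cells at -0.54 (SE 0.118) but higher in the CD8.1 than in the CD8.2 subset at 0.38 (SE 0.116). *Itga4* was higher in the CD8.1 than in the CD8.2 subset at 0.27 (SE 0.0936) and not called within B6 mice, at 0.09 (SE 0.0933). *Nkg7*, *Gzmm* and *Tbx21* also belong to the cytotoxic programme itself.

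Between strains, 6 of these 12 genes rose and 0 fell in CD8.1 relative to B6 CD4+ T cells, where *Ly6c2* was 4.12-fold higher and 12.8% of all genes were called. They were *Nkg7* at 1.45 (SE 0.206), *Cxcr3* at 1.38 (SE 0.164), *Il2rb* (CD122) at 1.35 (SE 0.0959), *Ccl5* at 1.20 (SE 0.219), *Cd44* at 1.04 (SE 0.118) and *Eomes* at 0.79 (SE 0.228), on the log2 scale. In CD8.2 relative to B6 CD8+ T cells, where *Ly6c2* was 0.532-fold and 7.94% of all genes were called, 0 rose and 7 fell, including *Ccl5* by 2.27 (SE 0.149), *Gzmm* by 2.16 (SE 0.131), *Fasl* by 1.36 (SE 0.294) and *Tbx21* by 1.18 (SE 0.145). Without CD8.2 replicate 3, 4 were called. Of the genes that rose in CD8.1 T cells, *Ccl5* and *Il2rb* (-0.58) fell in this comparison. *Nkg7* (-0.37), *Cxcr3* (-0.12), *Eomes* (-0.14) and *Cd44* (0.11) were not called in it. Other cells express some of these genes: the 5 NK cell markers summed to 0.955 to 1.91 CPM for B6 CD4+ and 8.35 to 12.6 CPM for B6 CD8+, against 3.09 to 4.07 CPM for CD8.1 and 2.92 to 4.56 CPM for CD8.2 samples, and the 8 monocyte and macrophage markers, cells that also carry Ly6C, to 5.68 to 10.3, 14.1 to 23.0, 24.9 to 42.0 and 10.7 to 24.2 CPM. Single genes held much of some of these sums. *Ccr2*, of the monocyte and macrophage markers, had means of 3.08 CPM for B6 CD4+, 13.0 CPM for B6 CD8+, 16.1 CPM for CD8.1 and 2.77 CPM for CD8.2 samples. *Klre1*, of the NK cell markers, had 0.0285, 6.82, 0.217 and 0.435 CPM in the same order. The study sorted for TCRβ and CD62L, and without CD44 per its methods, and how far this removed NK cells, monocytes and macrophages was not measured here. Markers of regulatory T cells summed to 350 to 385 CPM for CD8.1 against 133 to 185 CPM for B6 CD4+ samples. The part of these or of the other cells named in the *Ly6c2* and memory gene values was not tested.

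**Figure D5:**
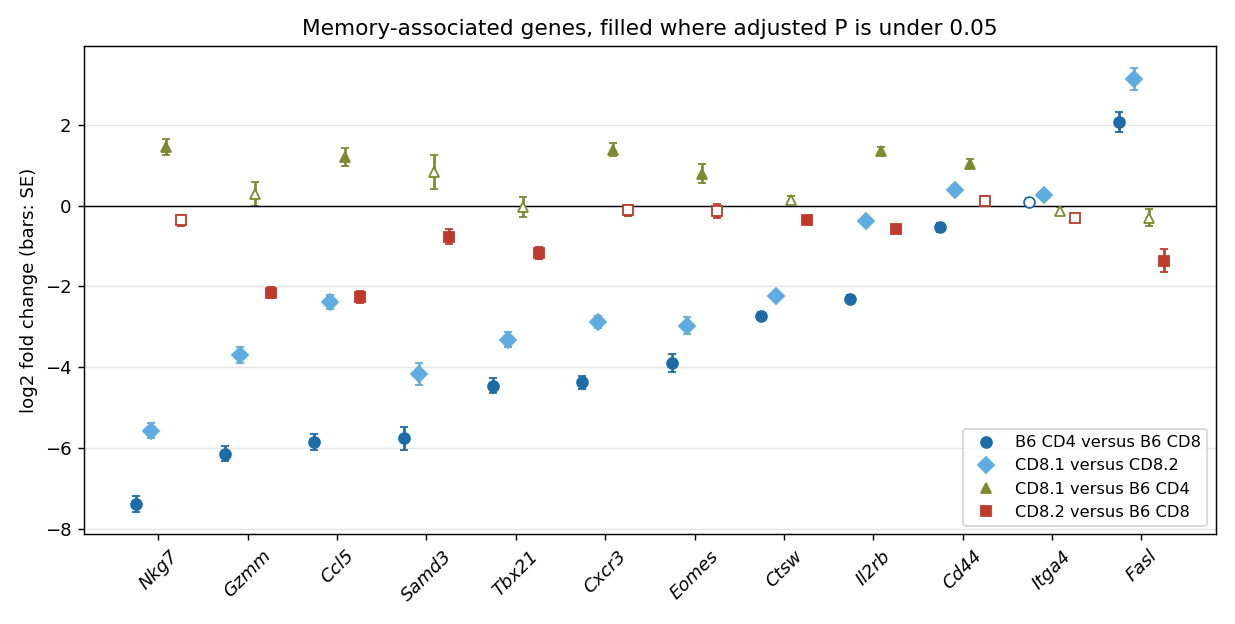
Fitted log2 fold change (vertical axis, bars for the SE) of the 12 tested memory-associated genes for 4 comparisons, filled where the adjusted P was under 0.05 in edgeR. Most genes lie below 0 in both lineage comparisons, 6 are filled above 0 for CD8.1 against B6 CD4+, and 7 are filled below 0 for CD8.2 against B6 CD8+ T cells.

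Interferon-stimulated genes were examined because *Ly6a*, *Ly6c1*, *Ly6c2* and *Ly6e* belong to that class by background knowledge. Of 29 others tested, 5 were higher and 4 lower in B6 CD4+ than in B6 CD8+ T cells (median log2 fold change -0.09), and 3 were higher and 7 lower in the CD8.1 than in the CD8.2 subset (median -0.09). The calls over all genes were 23.1% and 28.7% in these comparisons, 12.8% in CD8.1 against B6 CD4+ and 7.94% in CD8.2 against B6 CD8+. Between strains, 0 rose and 8 fell in CD8.1 relative to B6 CD4+ T cells (median -0.38), with *Oas2*, an antiviral enzyme, at -1.25 (SE 0.225), *Isg15*, a ubiquitin-like modifier, at -0.81 (SE 0.221) and *Ifit3* at -0.81 (SE 0.232). In CD8.2 relative to B6 CD8+ T cells, 1 rose and 8 fell (median -0.44), with *Oas2* at -1.43 (SE 0.242), *Ifi27l2a* at -0.93 (SE 0.186) and *Ifi44* the 1 that rose, at 1.58 (SE 0.326). With the replicate block 15 and 16 genes were called in these comparisons, the first gave 3 without CD8.1 replicate 3, and the second gave 3 to 5 without B6 CD8 replicate 2 or 3 or CD8.2 replicate 1 or 3. Of the 3 members tested, *Ly6a* and *Ly6c1* passed in the first of these comparisons and none passed in the second in edgeR, where their unadjusted P values lay between 0.103 and 0.34.

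The genes whose log2 CPM followed each member most closely over the 12 samples were listed by Pearson's r. For *Ly6c2* they were *Adgrg5* (r = 0.996), *Cxcr6* (0.996), *Cxxc5* (0.996), *Chsy1* (0.995) and *Glipr2* (0.995). For *Ly6c1* they were *Trat1* (0.992), *Trib2* (0.991), *Itgb3* (0.987), *Ecm1* (0.987) and *Tesc* (0.987), and for *Ly6a* *Pvr* (0.987), *Gm6213* (0.985), *Acvrl1* (0.978), *Kifc1* (0.978) and *Adcy6* (0.976). *Ly6e* was followed less closely, by *Ergic1* (0.954), *Nlgn2* (0.950), *Bola3* (0.935), *R3hdm4* (0.929) and *Ucp2* (0.924). The samples fall into 2 lineages, so any gene with a lineage gap correlates, and no P is given.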

How the data were processed

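RNA of pooled sorted LN T cells was copied with a low-input template-switching kit and sequenced as read pairs. The authors aligned reads to mm10 with STAR and deposited raw counts per gene, as whole numbers and without normalization. The methods name RSEM for counting and the table's column names STAR, so which made the counts is unsure; the versions, annotation release, use of strand and treatment of reads shared by *Ly6c1* and *Ly6c2* are not given in the sources used here. All 12 columns were matched to samples by name. The count table was fitted with edgeR 4.0.16 under R 4.3.3 (TMM, filterByExpr, quasi-likelihood test, all 12 samples in 1 model with a coefficient per group), and adjusted P values are Benjamini-Hochberg values over 13118 genes. A gene was called at an adjusted P under 0.05. The fit was also run on simulated counts, and the outcome of that run is not given here. A total of 3 counts corresponded to 0.0875 to 0.167 CPM, and p-values measure the spread between samples of pooled cells. Levels are CPM, for which 93 second rows of a symbol were set aside by total count. The similar genes used log2 CPM with a prior count of 2. Sequences were compared with Biopython 1.88, and plots were made in Python 3.11.15 (matplotlib 3.10.9).

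The members and lists were chosen with earlier results of these data known. Genes named are the 4 members, up to 5 called genes per list and comparison with the smallest adjusted P, other family members of at least 1 CPM, the 5 most similar genes per member and the genes between the members. *Eomes* and *Itga4* fell outside this rule and were named after their values were seen. Deviations from group means of same-numbered B6 samples correlated at 0.126, 0.138 and 0.257, and of differently numbered ones at -0.221 to 0.0999. For CD8Dual samples the values were -0.00388, 0.0905 and 0.119, against -0.127 to 0.0321. The labels do not say whether replicate numbers mark pairs, and the main fit used no pairing. Alternatives were DESeq2 1.42.0 (size factors, Wald test), limma 3.58.1 (voom), other filters, only the groups compared, the replicate block, each library left out, a fold over 5 with unadjusted P, and *Ly6c1* summed with *Ly6c2*. Markers of endothelial cells other than *Pecam1*, and of plasmacytoid dendritic cells, were each under 1 CPM in every group mean.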

Additional observations from a re-analysis of the deposited data

Results flagged for a closer look

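The lineage gap differed between B6 and CD8Dual mice, by the test of the difference itself in edgeR (adjusted P under 0.05 over all genes), for 1 of the 3 members tested and 9 of 90 listed genes tested, against 1.87% of all genes (245 of 13118). The members and lists were chosen with earlier results of these data known, so their share is a description and not a test. Values are the log2 gap in CD8Dual mice (CD8.1 minus CD8.2) less that in B6 mice (CD4+ minus CD8+). *Ly6a* had -0.69. In the memory list the values were 3.47 for *Ccl5*, 2.45 for *Gzmm*, 1.93 for *Il2rb*, 1.81 for *Nkg7*, 1.51 for *Cxcr3* and 0.92 for *Cd44*, and among other GPI-anchored proteins 1.90 for *Cd160* and 0.92 for *Nt5e*. *Ifi44*, an interferon-stimulated gene, had -1.80. *Ly6c2*, for which this difference fixed the choice, is left out. No outlier was sought within groups of 3.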

How the results depend on the processing

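An alternative value counted as kept for a tested member if it had the same direction and the same side of the threshold. For *Ly6c2*, which was not tested, it had to keep its direction and differ by less than the combined SD of the groups in log2 CPM. By these 2 rules, 358 of 386 alternative values for the members' fold changes were kept, and 7 more changed sign without being called. These were 1 for *Ly6a* in CD8.2 against B6 CD8+, -0.18 to 0.013 when single libraries were left out, and 6 for the *Ly6c1* interaction, -0.29 to 0.42 when single libraries were left out, 0.089 by limma-voom and 0.65 when summed with *Ly6c2*. No change of normalization, test, filter, sample set or replicate block altered a member's call; all changes of a call came from summing *Ly6c1* with *Ly6c2* or from leaving out a library. Summed, the pair gave log2 fold changes of -2.71 (B6 CD4+ against CD8+), -2.06 (CD8.1 against CD8.2), -0.26 (CD8.1 against B6 CD4+), -0.91 (CD8.2 against B6 CD8+) and 0.65 (interaction), so the helper-side excess of *Ly6c1* turned and the strain difference of *Ly6c2* in CD8.1 T cells turned, by construction. Leaving out single libraries gave -0.83 to -0.61 for the *Ly6a* interaction, -0.55 to -0.40 for *Ly6c1* and 0.095 to 0.25 for *Ly6e* in CD8.1 against B6 CD4+, and 0.24 to 0.39 for the *Ly6e* interaction. Per kilobase of the longest transcript, the level was 264 CPM for *Ly6a* and 134 CPM for *Ly6c1* in B6 CD4+ and 617 CPM for *Ly6e* in CD8.1 T cells. Per kilobase of the reference transcript, a length chosen after seeing the data, it was 308 CPM for *Ly6a*, 134 CPM for *Ly6c1*, 617 CPM for *Ly6e* and 930 CPM for *Ly6c2* in B6 CD8+ T cells.

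List counts moved more, and the cause was not tested. In CD8.1 against B6 CD4+, the other Ly6/uPAR genes gave 2 calls by the DESeq2 Wald test, limma-voom, no filter or the replicate block, and the interferon-stimulated genes 18 with no filter, 15 with the replicate block and 3 with only the groups compared, a fit that also gave 0 for GPI synthesis and 3 for other GPI-anchored proteins. In CD8.2 against B6 CD8+, the interferon-stimulated genes gave 17 with no filter, 16 with the replicate block and 17 with only the groups compared, other GPI-anchored proteins 5, 4 and 6, and GPI synthesis 5 with the block and 7 with only the groups compared. A mean of at least 1 CPM left 2 calls among other Ly6/uPAR genes within B6. By a fold over 5 with an unadjusted P under 0.05, the lineage comparisons each gave 1 other Ly6/uPAR gene, 0 of GPI synthesis, 3 other GPI-anchored and 1 interferon-stimulated, and both strain comparisons gave 0 in all 5 lists. Leaving out single libraries gave, in CD8.1 against B6 CD4+, 0 to 2 other Ly6/uPAR, 0 to 6 GPI synthesis, 3 to 8 other GPI-anchored and 3 to 11 interferon-stimulated genes. In CD8.2 against B6 CD8+ it gave 1 to 4, 0 to 6, 2 to 4 and 3 to 11, with 4 to 9 memory genes, and for GPI synthesis 4 to 7 within B6 and 5 to 16 within CD8Dual mice. The replicate block changed no member's call. Same-numbered CD8Dual samples correlated at -0.00388, 0.0905 and 0.119, and the main fit took replicate numbers of neither strain as pairs.

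Depth limits *Ly6c1* in the cytotoxic groups, which rests on 16 to 39 reads a library.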
